A study of Mus musculus with 35 samples.

Results

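Beta-tubulin pairs with alpha-tubulin in the dimer that polymerizes into microtubules, and in the mouse it is made from a small family of genes whose products are called isotypes. The 8 isotype genes described here, *Tubb1*, *Tubb2a*, *Tubb2b*, *Tubb3*, *Tubb4a*, *Tubb4b*, *Tubb5* and *Tubb6*, were taken by name from the 55356 genes and loci of the count table. RNA of brain, cerebellum, heart and colon of adult C57BL/6J mice of both sexes, and of ovary and testis, had been sequenced as 29 RNA-seq libraries. There were 3 libraries for each combination of tissue and sex except male heart, which had 2, so that brain, cerebellum and colon had 6 libraries each, heart 5, and ovary and testis 3 each. Ovary and testis are named gonad of either sex in the sample labels. The mice are described only as adult, with no transgene or treatment, and the sources used here do not say which libraries came from the same animal, so p-values measure only the spread between these libraries, which may be technical. Of the 8 genes, 7 were counted under transcript models built from long Iso-seq reads and *Tubb1* under its ENSEMBL model, and all 8 passed the filter on low counts. The locus of *Tubb3* is also paired with *Gm20388*.

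Isotypes differ little along the body of the protein and most in the acidic tail at its carboxyl end, which protrudes from the microtubule and carries glutamate chains added by tubulin-tyrosine-ligase-like enzymes. *Tubb3* is the marker isotype of neurons, *Tubb2a*, *Tubb2b* and *Tubb4a* are known mainly from nervous tissue (the last of them also from myelinating oligodendrocytes), *Tubb4b* is the isotype associated with cilia and flagella, *Tubb5* and *Tubb6* are found in many cell types, and *Tubb1* is the isotype of platelets and of the megakaryocytes that shed them. Because these are bulk tissues, fewer cells of a type and less RNA per cell cannot be told apart in any of the values below.

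The coding end shows how close the genes are and where they part. The last 63 coding bases, stop codon included, were read from GENCODE M21 transcripts, with GAA and GAG, the glutamate codons, in capitals. They lie on GRCm38.p6 at chr2:174457820-174457882 (plus strand, *Tubb1*), chr13:34074468-34074530 (minus, *Tubb2a*), chr13:34127471-34127533 (minus, *Tubb2b*), chr8:123421620-123421682 (plus, *Tubb3*), chr17:57080690-57080752 (minus, *Tubb4a*), chr2:25222308-25222370 (minus, *Tubb4b*) and chr17:35834982-35835044 (minus, *Tubb5*), each within 1 exon.
Tubb1: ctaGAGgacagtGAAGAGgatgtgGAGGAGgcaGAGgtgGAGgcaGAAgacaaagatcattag
Tubb2a: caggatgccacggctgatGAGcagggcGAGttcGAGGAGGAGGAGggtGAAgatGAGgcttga
Tubb2b: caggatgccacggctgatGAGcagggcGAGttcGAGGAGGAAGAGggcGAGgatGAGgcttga
Tubb3: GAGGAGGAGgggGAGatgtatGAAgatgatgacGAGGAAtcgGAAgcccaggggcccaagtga
Tubb4a: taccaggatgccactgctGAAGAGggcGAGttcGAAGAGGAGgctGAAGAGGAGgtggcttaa
Tubb4b: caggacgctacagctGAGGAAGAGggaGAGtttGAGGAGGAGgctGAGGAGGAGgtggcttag
Tubb5: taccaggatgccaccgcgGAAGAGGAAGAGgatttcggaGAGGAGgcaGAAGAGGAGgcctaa
In these stretches of 20 codons before the stop, glutamate codons numbered 10 in *Tubb4b*, 9 in *Tubb4a* and *Tubb5*, and 8 in *Tubb1*, *Tubb2a*, *Tubb2b*, *Tubb3* and *Tubb6*, the last of which is not shown here. The whole coding sequences of *Tubb2a* and *Tubb2b* were 96.5% identical, and their last 60 bases 95.0%. *Tubb3* and *Tubb2b*, both genes of nervous tissue, were 83.4% identical over the coding sequence and 43.3% over the last 60 bases. *Tubb1* stood furthest from the others, with an identity of 72.9% to 75.8% over the coding sequence.

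Near-identical sequence limits what can be counted where reads that map to several places are left out. Among windows of 100 bases along 1 GENCODE transcript of each gene, 543 of 1511 in *Tubb2a* also occurred in *Tubb2b*, and 63.1% of the windows of *Tubb2a* and 72.3% of those of *Tubb2b* were found in no transcript of another gene. For *Tubb4b* the figure was 69.4%, with 411 of 1499 windows shared with the pseudogene *Tubb4b-ps1*. In the other 5 isotypes no window occurred in a transcript of another gene. *Tubb4b-ps1* itself held 1236 to 1330 reads in each testis library, which was 4.31% to 4.81% of the *Tubb4b* count there, and 0 to 11 reads in the libraries of the other tissues, at most 0.23% of the *Tubb4b* count. How many of these reads came from *Tubb4b* was not tested. *Tubb4b* also shares 123 exon bases with *Fam166a* on the opposite strand. Whether the counts were taken by strand is not given in the sources used here.

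Totals per library ran from 11742417 to 36194255 counts (median 24403774). Of 22 genes of known tissue or sex, 21 were higher in every library that should express them than in every other library, the exception being *Gdf9*, an oocyte gene whose locus was highest in heart. Levels are given as FPKM, the count scaled to the library total (CPM) and divided by the kilobases of exon, and the share of an isotype is its FPKM over the summed FPKM of the 8. The tests below instead scale libraries by TMM, a factor that ran from 0.604 to 1.45 and was highest in ovary (1.30 to 1.45) and lowest in female heart 1. Orders of levels that TMM scaling changes are named with each isotype, and shares do not depend on it. In female heart 3 the summed CPM of 3 cardiomyocyte markers was 17800, the lowest of the heart libraries (median 40200, highest 45400), while fibroblast, smooth muscle and proliferating cell markers were at their highest for heart (2520, 313 and 76.3, against medians of 1210, 139 and 17.8). Marker sums listed for types that heart does not hold were also raised there. They were 199 CPM for astrocyte markers (9.55 to 12.4 in the other 4 libraries), 61.0 for oligodendrocyte markers (19.0 to 26.1) and 61.7 for Sertoli cell markers (14.3 to 22.0). Of the astrocyte markers, *Gfap* was at most 0.219 and *Aqp4* at most 1.04 FPKM in any heart library. *Cldn11* is in both the oligodendrocyte and the Sertoli cell list. These sums do not show that such cells were present. The TMM factor of female heart 3 was 1.12, the highest of the heart libraries. Means of heart and its tests are therefore also given without that library where it moves them.

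Each tissue had its own mixture, and 3 kinds could be seen. In brain and cerebellum 6 isotypes each held a mean share of 9.64% to 26.4%, in heart and colon *Tubb4b* and *Tubb5* held most of the total, and in each gonad a single isotype dominated. In brain, *Tubb5* had 22.6% ± 1.81 (SD, n = 6) and *Tubb4a* 22.0% ± 3.14, followed by *Tubb3* (16.3% ± 0.363), *Tubb2a* (15.9% ± 1.13), *Tubb4b* (13.4% ± 0.493) and *Tubb2b* (9.64% ± 0.855). The first of these did not differ beyond the spread, *Tubb5* leading in 4 libraries and *Tubb4a* in 2, and which isotype led in brain depended on the length used (*Tubb4a* with 31.8% where counts were not divided by length, *Tubb2a* with 21.2% where windows of 100 bases shared with other genes were left out of the length). Counts not divided by length also put *Tubb5* first in heart (45.8%, *Tubb4b* 39.2%), and windows of 50 bases put *Tubb4b* first in cerebellum (25.5%). In cerebellum *Tubb4a* had 26.4% ± 2.73 and *Tubb2b* 17.5% ± 4.22 (n = 6), and *Tubb4a* led in 5 of the 6 libraries. In testis *Tubb4b* had 88.0% ± 0.513 and *Tubb5* 6.38% ± 0.573, and in ovary the order was turned around, with *Tubb5* at 69.9% ± 1.46 and *Tubb4b* at 16.5% ± 0.753 (n = 3 each).

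**Figure D1:**
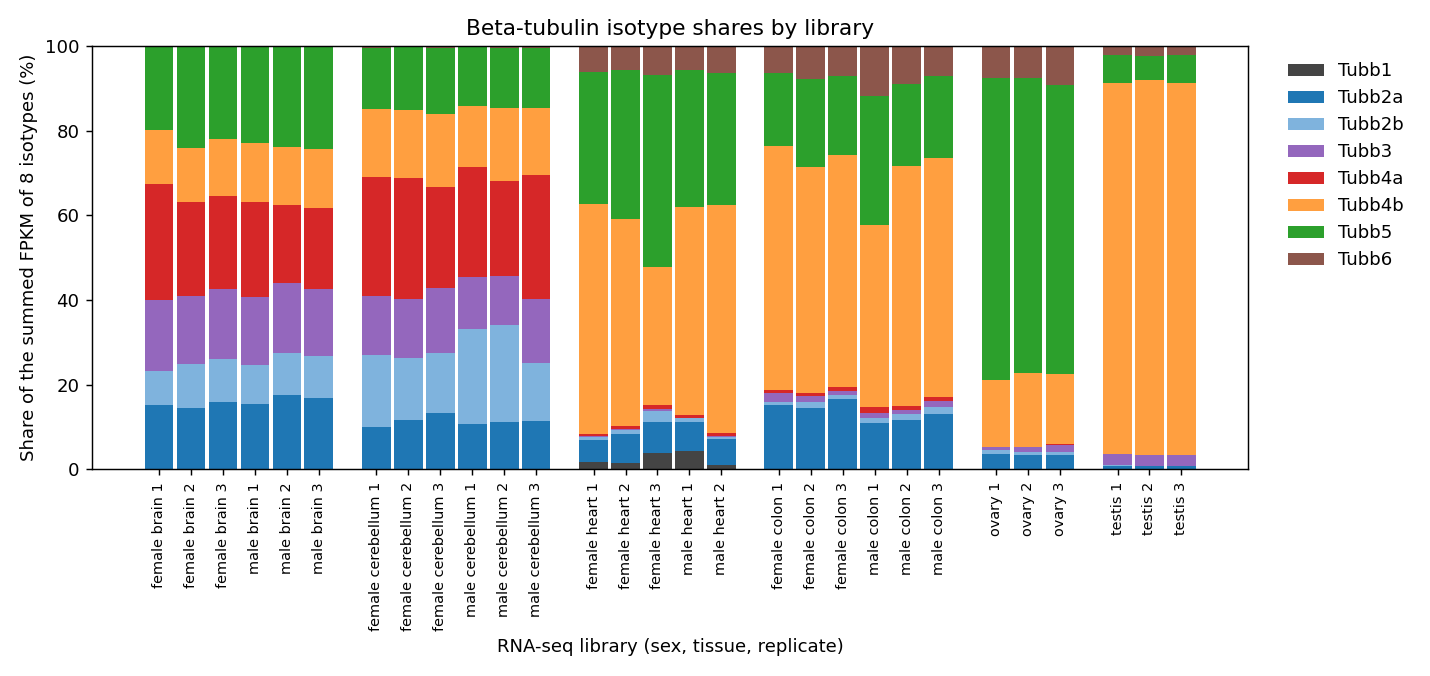
Share of each isotype in the summed FPKM of the 8 genes (vertical axis, percent), 1 bar for each of the 29 libraries (horizontal axis), grouped by tissue. *Tubb4b* takes 87.7% to 88.6% of every testis bar and *Tubb5* 68.4% to 71.4% of every ovary bar, while 6 isotypes divide the brain and cerebellum bars.

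The evenness of the mixture can be put in 1 number, the exponential of the Shannon entropy of the shares, which is the count of equally abundant isotypes that would be as diverse. It was 5.82 ± 0.0604 in brain, 5.87 ± 0.0736 in cerebellum, 3.62 ± 0.205 in colon, 3.48 ± 0.333 in heart, 2.62 ± 0.0977 in ovary and 1.66 ± 0.0248 in testis. Brain and cerebellum overlapped, as did colon and heart, and no other neighbours in this order did. Without female heart 3, which had 3.99, heart was at 3.35 ± 0.197 (n = 4). The summed level of the 8 genes was 975 ± 109 FPKM in brain, 868 ± 113 in cerebellum, 668 ± 21.3 in testis, 436 ± 80.5 in ovary, 377 ± 70.2 in colon and 145 ± 33.6 in heart. The total was lowest in heart, where all 5 libraries (109 to 198 FPKM) lay below every library of the other tissues. With TMM-scaled library sizes heart had 160 to 211 and ovary, the lowest of the others by its lowest library, 238 to 385, and the mean of ovary over that of heart was 1.70 in place of 3.0. By library total heart was at 132 ± 19.1 FPKM without female heart 3 (n = 4). The means of ovary and colon changed places (327 ± 78.0 and 345 ± 68.9).

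The isotypes of nervous tissue come first. *Tubb3* was at 131 FPKM in the lowest, 157 in the median and 183 in the highest brain library, and at 83.6, 128 and 154 in cerebellum. In testis it was at 17.4, 17.2 and 17.7 FPKM, in ovary at 2.69, 5.61 and 7.40, in colon at 3.81 to 5.85, and in heart at 0.404, 0.507, 0.986, 0.177 and 0.252. Brain and cerebellum overlapped, every cerebellum library lay above every testis library, and testis lay above every ovary library, while ovary and colon overlapped and changed places with TMM-scaled library sizes (3.97 and 4.23 FPKM).

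*Tubb2a* was at 126, 161 and 177 FPKM (lowest, median, highest) in brain and at 80.6, 102 and 116 in cerebellum, with no overlap. It was the nervous-tissue isotype with the highest level elsewhere: colon had 40.9, 47.1 and 78.7 FPKM, the highest value being female colon 3, against 12.4, 17.0 and 15.8 in ovary, 6.31 to 10.1 in 4 heart libraries, 14.7 in female heart 3, and 5.56, 4.41 and 4.99 in testis. Ovary and heart overlapped through female heart 3 alone, and the other neighbours did not overlap. With TMM-scaled library sizes cerebellum and colon overlapped too, and heart (12.5) lay above ovary (11.3).

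*Tubb2b*, the near-identical neighbour of *Tubb2a* on chromosome 13, had the opposite order in the neural tissues. It was at 117, 150 and 173 FPKM in cerebellum and 75.8, 94.1 and 110 in brain, without overlap by library total but with overlap when library sizes were scaled by TMM (lowest cerebellum library 103, highest brain library 109). Outside them all 17 libraries lay at or below 6.63 FPKM, with 2.54 to 6.63 in colon, 2.92, 3.39 and 3.21 in ovary, 0.964, 1.38, 5.10, 1.35 and 0.369 in heart, and 0.556, 0.246 and 0.476 in testis. Each of these 4 tissues overlapped the next, ovary and heart through female heart 3 alone.

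*Tubb4a* went from the highest mean level of the 8 in cerebellum to almost no reads in testis. It was at 165, 232 and 294 FPKM in cerebellum and 177, 196 and 301 in brain, which overlapped, and at 2.37 to 5.96 in colon, 0.371, 1.17, 1.71, 0.953 and 0.830 in heart and 0.207, 0.837 and 0.831 in ovary. The 3 testis libraries held 4, 2 and 4 reads (0.0437, 0.0201 and 0.0404 FPKM), close to the level that 3 counts give there (0.0302 to 0.0328 FPKM). Heart and ovary overlapped. With TMM-scaled library sizes the means of brain and cerebellum were 216 and 213.

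Within the cerebellum 2 libraries, male cerebellum 1 and 2, had *Tubb2b* shares of 22.6% and 22.9%, while the other 4 lay between 13.6% and 16.9%. The same 2 libraries had the lowest *Tubb3* shares (12.2% and 11.4%, the others 13.9% to 15.4%). The summed CPM of 6 oligodendrocyte markers was 5080 and 3650 in them and 7180, 8010, 8630 and 11400 in the others, and that of 6 neuron markers 1750 and 1590 against 1840 to 2590. Astrocyte markers went the other way, with 3560 and 3390 CPM against 2800 to 3360. The part of these cells in the shares was not tested.

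The isotypes found in many cell types follow. *Tubb4b* was at 579, 578 and 608 FPKM in testis, at 159, 198 and 261 (lowest, median, highest) in colon, 111, 145 and 160 in cerebellum, 113, 132 and 147 in brain, 54.5, 86.4 and 76.4 in ovary, and 67.8, 73.3, 64.4, 71.5 and 58.7 in heart. Testis stood apart from all other libraries and brain from ovary, and the remaining neighbours in this order overlapped. With TMM-scaled library sizes the end of the order turned around, heart having 92.3 ± 21.5 and ovary 54.4 ± 15.0 FPKM, and brain (132) came before cerebellum (129). *Tubb5* was at 246, 349 and 317 FPKM in ovary, 185, 222 and 240 in brain, 103, 133 and 144 in cerebellum, 52.0, 78.8 and 114 in colon, 38.9, 53.1, 90.0, 46.8 and 34.1 in heart and 44.2, 37.3 and 46.6 in testis. By library total ovary did not overlap brain, but with TMM-scaled library sizes it did (170 to 269 in ovary, 181 to 259 in brain, means 228 and 222 FPKM). Brain did not overlap cerebellum under either. Cerebellum, colon, heart and testis each overlapped the next, except that cerebellum and colon were apart with TMM scaling (lowest 93.9, highest 93.5).

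*Tubb6* was lowest in the neural tissues. It was at 26.1, 37.6 and 42.2 FPKM in ovary, 18.5, 30.8 and 44.1 in colon, 13.6, 15.2 and 14.9 in testis, 7.56, 8.45, 13.3, 8.34 and 7.01 in heart, 3.16, 3.65 and 4.02 in cerebellum and 1.27, 1.59 and 2.08 in brain. Ovary and colon overlapped, and no other neighbours did. With TMM-scaled library sizes colon (27.9) lay above ovary (26.5), and colon and testis overlapped.

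*Tubb1* was a rare transcript, with 739 reads over all 29 libraries. Heart held most of them, with 75, 81 and 252 reads in female heart 1 to 3 and 171 and 29 in male heart 1 and 2, or 2.19, 2.30, 7.46, 6.21 and 1.00 FPKM. The summed CPM of 6 platelet and megakaryocyte markers was 39.3, 42.0 and 91.5 in the same female and 68.4 and 33.3 in the same male heart libraries, and 4.23 to 19.3 in the other tissues, with none of the 6 at 0 in any tissue. The 2 heart libraries with the most *Tubb1* reads thus also had the highest platelet marker sums, and the part of platelets in the *Tubb1* level was not tested. In cerebellum it was at 0.174 to 1.01 FPKM, the highest being male cerebellum 1 with 27 reads, which overlapped heart by that library alone and not with TMM-scaled library sizes (lowest heart library 1.47, highest cerebellum library 0.930). Female colon had 0 reads in all 3 libraries, which allows up to 0.182 FPKM in the shallowest colon library, and male colon had 0, 6 and 0. Brain lay between 0.0277 and 0.339 FPKM. The ovary libraries held 1, 0 and 2 reads and the testis libraries 0, 0 and 3, too few to order them, and their means changed places with the scaling (0.0300 and 0.0231 FPKM by library total, 0.0221 and 0.0270 with TMM-scaled library sizes).

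**Figure D2:**
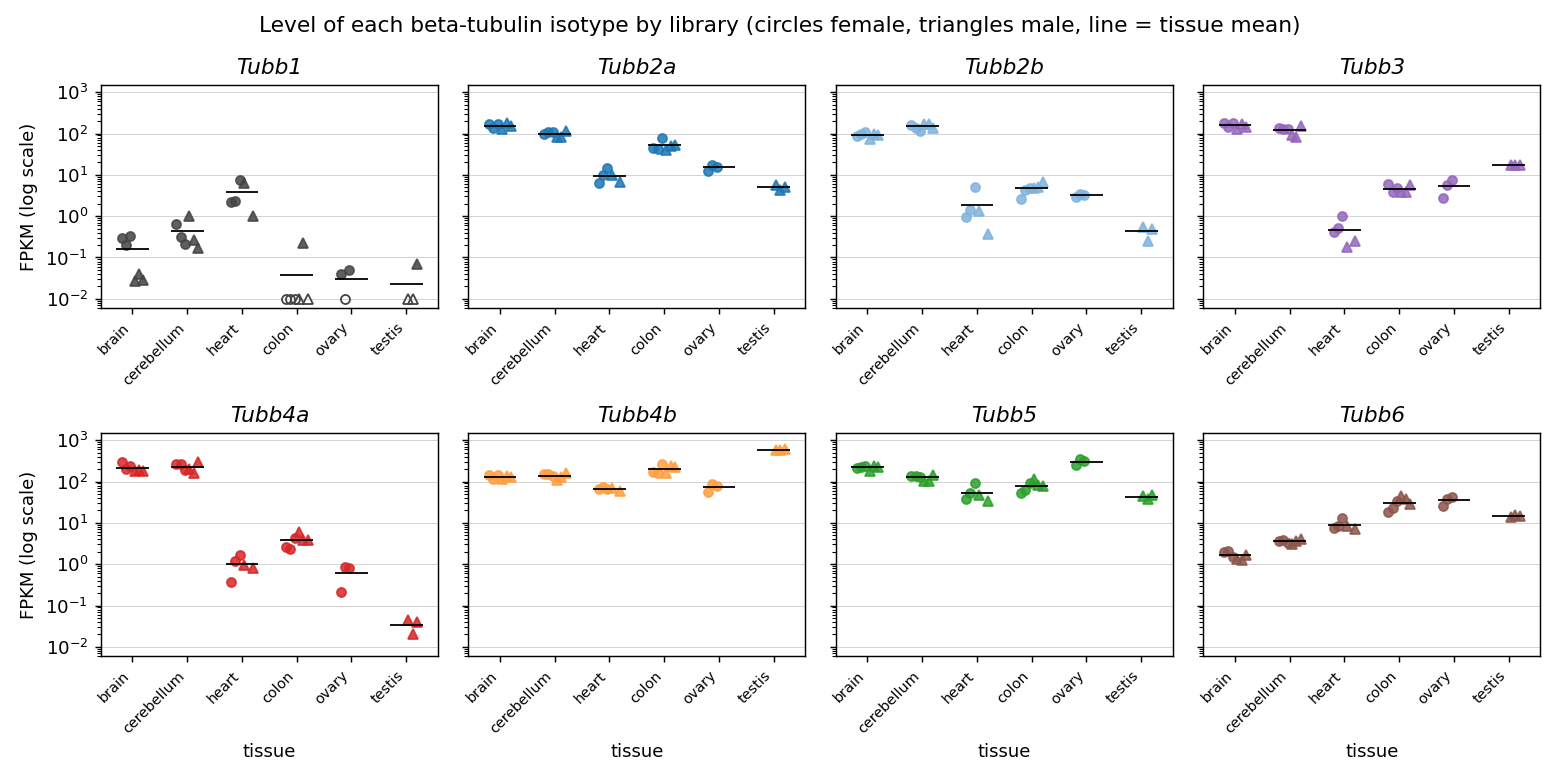
FPKM (vertical axis, log scale) of each isotype in each tissue (horizontal axis), with 1 point for each library, circles for female and triangles for male, open symbols drawn at 0.01 for libraries with 0 reads, and a line at the tissue mean. *Tubb3*, *Tubb2b* and *Tubb4a* have their 12 brain and cerebellum libraries above all others, *Tubb4b* its 3 testis libraries, and *Tubb6* its lowest values in brain.

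Tissue specificity was summarized with tau, which is 0 for a gene at the same level in all 6 tissues and 1 for a gene in a single tissue. It was 0.964 for *Tubb1*, 0.860 for *Tubb2b*, 0.814 for *Tubb3*, 0.809 for *Tubb4a*, 0.792 for *Tubb4b*, 0.769 for *Tubb2a*, 0.663 for *Tubb6* and 0.658 for *Tubb5*. Among the 16558 protein-coding genes with a tissue mean of at least 1 FPKM, the median was 0.68, and *Tubb5* and *Tubb6* were the only isotypes below it.

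To ask which isotypes differed between tissues beyond the spread of the libraries, each tissue was compared with the mean of the log levels of the other 5, in 1 edgeR quasi-likelihood fit over 29 libraries and 29911 genes (adjusted p under 0.05). A tissue with a very low level pulls that mean down, so an isotype can be called higher in a tissue that has less of it than some others. *Tubb1* was at 0 in all 3 female colon libraries and had at most 3 reads in any ovary or testis library. Its fitted fold depends on the value given to a count of 0 and is not printed. Its call depends on that value too wherever female colon enters. This holds for each comparison with the other 5 tissues and for the tests of sex in colon and across tissues. Those calls and non-calls of *Tubb1* are listed and counted below, but they cannot decide whether it differed. Its levels by library, given above, do not depend on that value. Many genes of any kind differ between tissues, so the number of isotypes called is set beside the share of all genes called.

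In brain *Tubb4a*, *Tubb2b*, *Tubb3*, *Tubb2a* and *Tubb5* were higher and *Tubb6* lower. Called higher were 5 of 8 (33.0% of all genes) and called lower 1 of 8 (23.1% of all genes), and the median log2 difference over the 7 isotypes with a fold was 2.95, beside -0.10 over all genes. *Tubb4a* was 119-fold higher (log2 6.89, SE 0.20, adjusted p = 1e-20), *Tubb2b* 22.7-fold (log2 4.50, SE 0.17), *Tubb3* 22.5-fold (log2 4.49, SE 0.14), *Tubb2a* 7.73-fold (log2 2.95, SE 0.12) and *Tubb5* 2.45-fold (log2 1.29, SE 0.11). *Tubb6* fell by 3.05 on the log2 scale (SE 0.16, adjusted p = 2.36e-15). *Tubb4b* was not called, with a log2 difference of -0.21 (SE 0.14, adjusted p = 0.216).

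In cerebellum *Tubb4a* (log2 6.88, SE 0.20), *Tubb2b* (5.13, SE 0.17), *Tubb3* (3.84, SE 0.14), *Tubb2a* (1.99, SE 0.12) and *Tubb1* (adjusted p = 0.00205) were higher and *Tubb6* lower (log2 -1.85, SE 0.14). Again 5 of 8 were called higher, beside 30.8% of all genes, and 1 lower, beside 22.0%, and the median over 7 was 1.99, beside -0.098 over all genes. *Tubb5*, which was higher in brain, was not called (log2 0.16, SE 0.12, adjusted p = 0.289), nor was *Tubb4b* (log2 -0.25, SE 0.14, adjusted p = 0.143). With the size factors of DESeq2 in place of TMM, and with the DESeq2 test, *Tubb4b* was called lower in both neural tissues.

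The direct comparison of brain with cerebellum showed *Tubb5* 1.92-fold higher in brain (log2 0.94, SE 0.15, adjusted p = 2.41e-05), *Tubb2a* 1.74-fold (log2 0.80, SE 0.16, adjusted p = 0.000395) and *Tubb3* 1.46-fold (log2 0.54, SE 0.18, adjusted p = 0.0277). *Tubb6* was lower in brain (log2 -1.01, SE 0.17, adjusted p = 3.91e-05), as was *Tubb1* (adjusted p = 0.035), while *Tubb2b* missed the threshold (log2 -0.53, SE 0.22, adjusted p = 0.0791). *Tubb4a* and *Tubb4b* had log2 differences of 0.011 (SE 0.23) and 0.033 (SE 0.17). These 3 higher and 2 lower isotypes stand beside 15.3% and 10.8% of all genes, and the median over 7 was 0.033, beside 0.0 over all genes. The call of *Tubb3* was lost without any 1 of 6 libraries (female brain 1 and 3, male brain 2, female cerebellum 3, male cerebellum 1 and 2), with log2 differences of 0.46 to 0.53 and adjusted p of 0.051 to 0.0889. That of *Tubb1* was lost without any 1 of 7 (female brain 1 and 2, male brain 1, 2 and 3, female and male cerebellum 1), with adjusted p of 0.0525 to 0.153, and *Tubb2b* was called without female heart 3 (adjusted p = 0.0231).

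In heart 6 of 8 were lower (29.6% of all genes) and 2 higher (22.1% of all genes), and the median over 7 isotypes was -1.44, beside -0.55 over all genes. *Tubb3* had the largest difference of the 7 (log2 -5.52, SE 0.27, adjusted p = 2.78e-15), followed by *Tubb2b* (-2.31, SE 0.26), *Tubb4a* (-1.96, SE 0.30), *Tubb2a* (-1.44, SE 0.16), and *Tubb4b* and *Tubb5* (both -0.82, SE 0.16 and 0.14). *Tubb1* was higher (adjusted p = 2.06e-11), and *Tubb6* was 1.26-fold higher, close to the threshold (log2 0.33, SE 0.13, adjusted p = 0.0407). Without female heart 3 the value for *Tubb2b* was -2.63 and for *Tubb4b* -0.70, both still called, and *Tubb6* was no longer called (log2 0.34, adjusted p = 0.0511). Without male heart 1 *Tubb2b* was -2.91 (adjusted p = 6.56e-08). The call of *Tubb6* was lost without any 1 of 11 libraries (all 5 of heart, female brain 3, male brain 1 and 2, male cerebellum 1, ovary 1 and testis 1), with log2 differences of 0.26 to 0.37.

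Female heart 3 differed from the other heart libraries in its mixture. *Tubb5* led there with 45.5% and *Tubb4b* had 32.6%, whereas *Tubb4b* led in the other 4 with 48.7% to 54.4%. With that library the heart means were 47.8% ± 8.86 for *Tubb4b* and 35.1% ± 6.07 for *Tubb5* (n = 5), and without it 51.5% ± 2.99 and 32.5% ± 1.93 (n = 4). Its *Tubb2b* level of 5.10 FPKM was the highest of the heart libraries, the others lying between 0.369 and 1.38. The relation of these values to the marker sums named above was not tested.

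In colon *Tubb6* was 3.56-fold higher (log2 1.83, SE 0.11, adjusted p = 1.99e-13), *Tubb2a* 1.82-fold (log2 0.86, SE 0.12) and *Tubb4b* 1.30-fold (log2 0.38, SE 0.13, adjusted p = 0.0158). *Tubb3* (log2 -1.81, SE 0.18), *Tubb2b* (-0.86, SE 0.21), *Tubb5* (-0.67, SE 0.12) and *Tubb1* (adjusted p = 0.0181) were lower, and *Tubb4a* was not called (log2 -0.27, SE 0.25). The 3 higher isotypes stand beside 28.2% of all genes and the 4 lower beside 31.1%. The median over 7 was -0.27, beside -0.38 over all genes. The call of *Tubb4b* was lost without female colon 3 (log2 0.25, adjusted p = 0.129) or male colon 2 (log2 0.32, adjusted p = 0.0694). That of *Tubb1* was lost without testis 3, the only testis library with *Tubb1* reads. It thus rested on the 3 reads of that library and cannot show that *Tubb1* was lower in colon. In male colon 1, the library with the highest smooth muscle marker sum (14300 CPM, the others 5960 to 10700), fibroblast sum (2350, the others 1500 to 1840) and endothelium sum (107, the others 69.5 to 97.7) and the lowest sum of 3 genes of colon epithelium (12900, the others 15300 to 25400), *Tubb4b* had 42.9% and *Tubb5* 30.5%, outside the range of the other 5 (53.3% to 57.5% and 17.4% to 20.8%). The colon mean of *Tubb4b* was 53.6% ± 5.51 with it and 55.8% ± 1.74 without it, and the part of these cell types in the shares was not tested. The sum of 5 enteric neuron markers ran from 50.9 to 69.5 CPM in colon, and all 5 were detected there. They are not particular to colon, the same sum being 80.7 to 123 CPM in brain and 135 to 164 CPM in cerebellum.

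In testis *Tubb4b* was 6.22-fold higher (log2 2.64, SE 0.15, adjusted p = 1.19e-14), *Tubb6* 1.97-fold (log2 0.98, SE 0.15) and *Tubb3* 1.88-fold (log2 0.91, SE 0.19, adjusted p = 0.000108). The mean level of *Tubb3* in testis (17.4 FPKM) was still below that in brain (159) and cerebellum (120), and heart was at 0.465. *Tubb4a* (log2 -7.90, SE 0.50), *Tubb2b* (-4.59, SE 0.37), *Tubb2a* (-2.76, SE 0.22) and *Tubb5* (-1.30, SE 0.18) were lower. The 3 higher stand beside 40.4% of all genes and the 4 lower beside 26.7%, with a median over 7 of -1.30, beside 0.10 over all genes. The sum of 5 spermatid markers was 5750, 6430 and 5770 CPM in testis 1 to 3 and at most 8.77 CPM in any other library, and the part of spermatids in the *Tubb4b* level was not tested.

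In ovary *Tubb6* was 3.39-fold higher (log2 1.76, SE 0.14) and *Tubb5* 2.53-fold (log2 1.34, SE 0.14), and the other 5 with a fold were lower, from *Tubb2a* (log2 -1.60, SE 0.20) to *Tubb4a* (-3.64, SE 0.38). The 2 higher stand beside 22.4% of all genes and the 5 lower beside 19.8%, with a median over 7 of -1.74, beside -0.15. Between the gonads, *Tubb4b* was 12.5-fold higher in testis (log2 3.65, SE 0.27, adjusted p = 1.09e-11) and *Tubb3* 5.06-fold (log2 2.34, SE 0.28), beside 37.8% of all genes called higher. *Tubb4a* (log2 -3.55, SE 0.58), *Tubb2b* (-2.27, SE 0.39), *Tubb5* (-2.20, SE 0.22), *Tubb2a* (-0.97, SE 0.23) and *Tubb6* (-0.65, SE 0.22, adjusted p = 0.0102) were lower in testis, beside 26.5% of all genes, and the median over 7 was -0.97, beside 0.15. The call of *Tubb6* was lost without ovary 3 (log2 -0.48, adjusted p = 0.0776). The sum of 4 granulosa cell markers was 497 to 838 CPM in ovary and 38.6 to 44.1 CPM in testis.

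**Figure D3:**
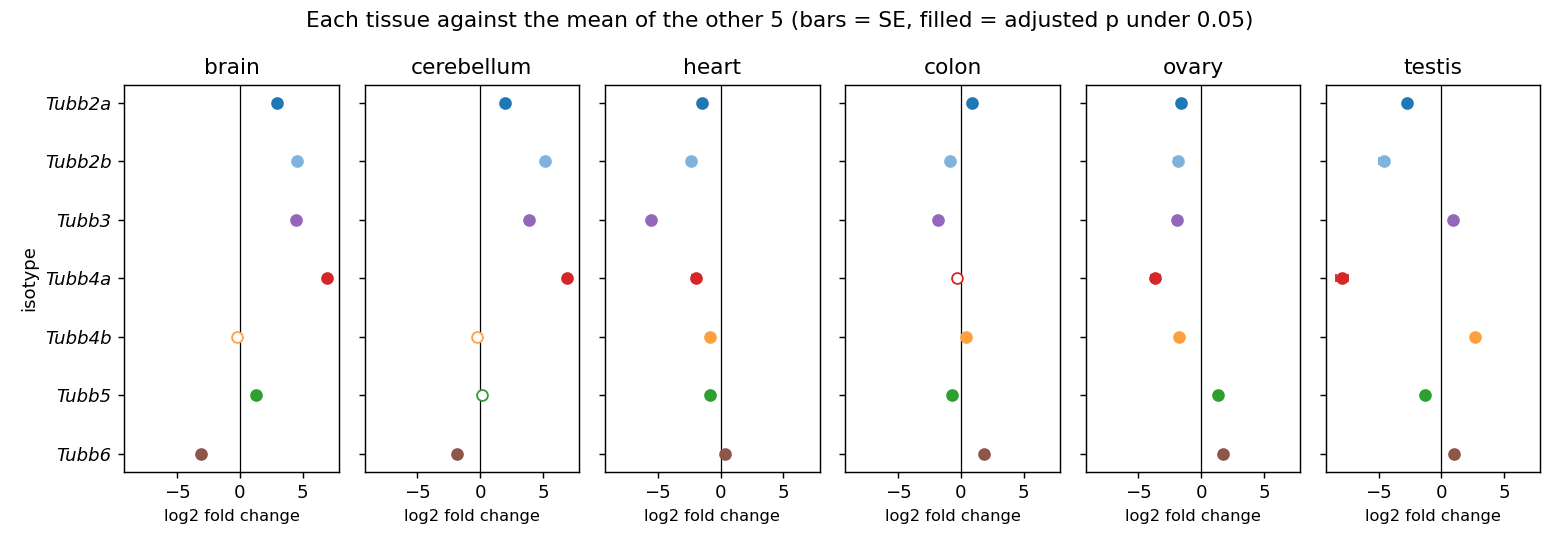
Log2 fold change (horizontal axis) of 7 isotypes (vertical axis) in each tissue against the mean of the other 5, 1 panel for each tissue, with bars of 1 SE and filled points for an adjusted p under 0.05. *Tubb4a* reaches 6.89 and 6.88 in brain and cerebellum and -7.90 in testis, and *Tubb4b* has its highest value, 2.64, in testis.

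Sex made no difference that the fit could call. Of the 8 isotypes 0 were called between males and females in brain, cerebellum, heart or colon, with edgeR or with DESeq2, and 0 in the test of whether sex differences differ between tissues. Few genes were called at all with edgeR, 0.0368% of those tested in brain, 0.0301% in cerebellum, 0.0635% in heart, 0.324% in colon and 0.0167% in the test across tissues. These are 11, 9, 19, 97 and 5 genes with edgeR, where the DESeq2 test called 52, 22, 272, 405 and 117, and leaving out 1 library gave 7 to 285 in heart, so the background itself depends on the test and on single libraries. At an unadjusted p under 0.05 there was 1 isotype in brain, 0 in cerebellum, 2 in heart, 0 in colon and 1 in the test across tissues. Those in heart were *Tubb2b* (log2 male over female -1.17, SE 0.44, adjusted p = 0.361) and *Tubb3* (-1.29, SE 0.51, adjusted p = 0.39), and the first was -0.53 without female heart 3 and -2.35 without male heart 1, which leaves 1 male heart library, assumed to vary like the other groups. The one in brain was *Tubb1*, with 11, 8 and 13 reads in female and 1, 2 and 1 in male libraries (adjusted p = 0.981). The platelet marker sums of these libraries were 5.65 to 7.19 CPM in female and 4.23 to 5.49 CPM in male brain. With standard errors of 0.21 to 0.51 for the other 7 isotypes, small differences between the sexes could not be resolved with these libraries.

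**Figure D4:**
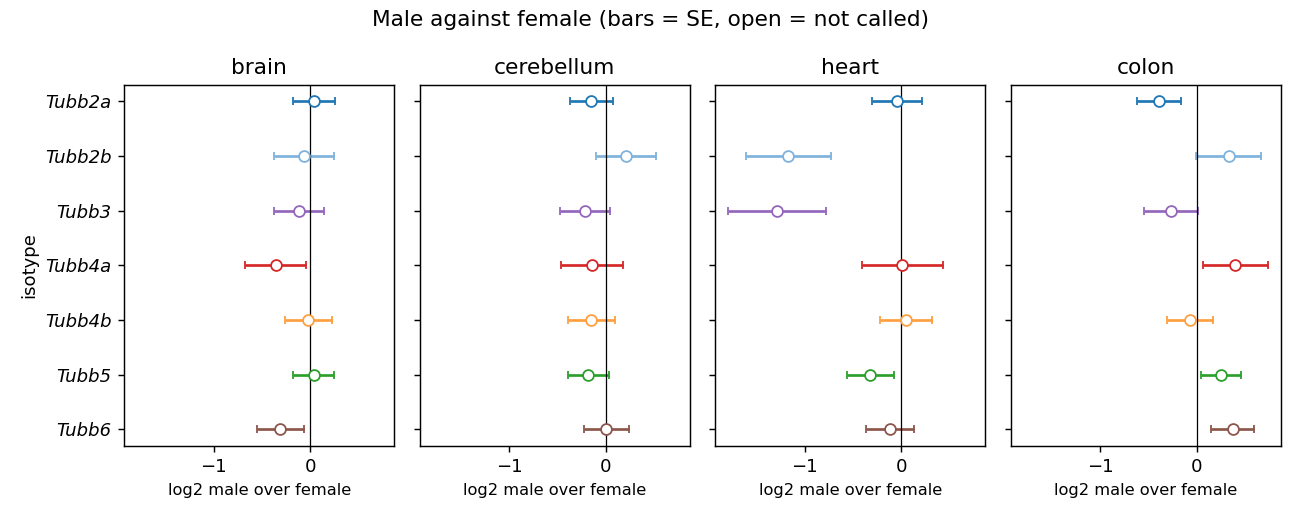
Log2 fold change of male over female (horizontal axis) of 7 isotypes (vertical axis) in 4 tissues, with bars of 1 SE and open points for isotypes not called. The values lie between -0.39 and 0.40 except *Tubb2b* (-1.17) and *Tubb3* (-1.29) in heart.

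Alpha-tubulin, the partner subunit, was followed in 8 genes. *Tuba1a*, the neuronal alpha isotype, averaged 409 ± 43.1 FPKM in brain and 323 ± 39.8 in cerebellum, and *Tuba1b* 115 ± 14.6 and 98.0 ± 28.4. In testis *Tuba3a* averaged 661 ± 41.1 FPKM, *Tuba3b* 481 ± 30.7 and *Tuba8* 190 ± 5.73, while *Tuba3a* and *Tuba3b* did not exceed 2.01 FPKM in any library of another tissue. In heart *Tuba8* (94.6 ± 20.9) and *Tuba4a* (90.2 ± 21.6) led, with 104 ± 4.40 and 98.4 ± 13.1 without female heart 3. *Tuba1c* reached 24.5 ± 3.37 FPKM in testis and 22.8 ± 5.13 in colon, and *Tubal3* 6.27 ± 1.18 in colon and 0.229 ± 0.165 in testis. In edgeR 6 alpha genes were called higher and 2 lower in testis (40.4% and 26.7% of all genes), 3 higher and 3 lower in brain (33.0% and 23.1%), and 2 higher and 2 lower in heart (22.1% and 29.6%). Of the 8 alpha genes 2, *Tuba3a* and *Tubal3*, had a group at 0, which enters their calls as it does for *Tubb1*. The summed FPKM of alpha over beta genes was 2.18 ± 0.104 in testis, 1.89 ± 0.473 in heart (1.16 in female heart 3, 1.77 to 2.41 in the others), 0.637 ± 0.0293 in brain, 0.597 ± 0.0344 in cerebellum, 0.469 ± 0.0311 in ovary and 0.352 ± 0.0461 in colon. How much sequence the alpha genes share with other genes was not measured, so reads left out of either set may shift this ratio.

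Genes that fold, modify or bind tubulin were counted by list. In 3 of 14 glutamylases and glycylases and 1 of 6 deglutamylases a group was at 0, which enters their calls as it does for *Tubb1*. The shares of all genes called higher and lower were 33.0% and 23.1% in brain, 30.8% and 22.0% in cerebellum and 40.4% and 26.7% in testis, and counts near them say nothing particular to a list. In brain all 16 genes of microtubule-associated proteins were higher (median log2 3.85), led by *Stmn3* (7.38, SE 0.11) and *Stmn2* (5.69, SE 0.095), stathmins that bind free tubulin dimers, and in cerebellum 15 of 16 were. In testis 11 of them were lower and 4 higher, among the latter *Map7* (log2 2.23, SE 0.18). Of 14 glutamylases and glycylases, which lengthen the tails shown above, 11 were higher and 0 lower in testis, with *Ttll13* at log2 4.55 (SE 0.099), and of 6 deglutamylases 5 were higher and 0 lower, with *Agbl2* at 5.36 (SE 0.13). In brain 7 of the 14 were higher and 4 lower, the former including *Ttll7*, a beta-tubulin glutamylase (log2 3.24, SE 0.10). The chaperonin CCT, which folds tubulin, had 8 of 9 genes higher in testis, with *Cct6b*, its testis subunit, at log2 9.10 (SE 0.14) and *Tcp1* at 3.16 (SE 0.10), and 5 lower and 1 higher in brain. *Ttl*, which restores the terminal tyrosine of alpha-tubulin, was higher in brain (log2 1.83, SE 0.092) and lower in testis (-2.49, SE 0.17). Of the detyrosinating enzymes, *Vash1* was higher in brain (1.48, SE 0.16) and not called in testis, and *Vash2* was lower in brain (-0.57, SE 0.24) and higher in testis (6.16, SE 0.21). Of the 4 genes of tyrosination and detyrosination 2 were higher and 2 lower in brain, and 2 higher and 1 lower in testis. *Ttc5*, which takes part in the decay of tubulin mRNA when free tubulin is in excess, was higher in brain (log2 0.49, SE 0.076) and lower in testis (-0.67, SE 0.11).

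Over the 29 libraries, the protein-coding genes with the most similar profile of log2 CPM were, by Pearson's r among 18265 genes, *Scamp5* for *Tubb2a* (0.986), *Ptprz1* for *Tubb2b* (0.986), *Adam23* for *Tubb3* (0.988), *Stmn2* for *Tubb4a* (0.988), *Mkrn1* for *Tubb4b* (0.965), *Spin1* for *Tubb5* (0.947), *Tgfbi* for *Tubb6* (0.973) and *Ppbp*, a platelet chemokine gene, for *Tubb1* (0.939). Next came *Opcml* (0.971) and *Gnb1* (0.969) for *Tubb2a*, *Eno2* and *Cacng7* (both 0.983) for *Tubb2b*, *Brsk1* (0.984) and *Slain1* (0.982) for *Tubb3*, and the joint locus *Cadm3/Ackr1* (0.986) for *Tubb4a*. For the other isotypes they were *Trim36* (0.962) and *Fam166a* (0.960) for *Tubb4b*, *Tanc2* (0.941) and *Fam163a* (0.937) for *Tubb5*, *Fgl2* (0.967) and *Fam129a* (0.965) for *Tubb6*, and *Adprhl1* (0.918) and the joint locus *Aldh4a1/Gm21969* (0.912) for *Tubb1*. *Fam166a* is the gene whose exons overlap *Tubb4b*. These r describe 29 points that fall into 6 tissue clusters, and the libraries of a tissue are not independent points.

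The upstream sequences of the neuronal *Tubb3* and of *Tubb4b* are shown as the isotypes led by nervous tissue and by testis. Both are the 250 bases before the start, from RefSeq on GRCm38.p6, at chr8:123411303-123411552 (plus strand) and chr2:25224703-25224952 (minus strand). Capitals mark matches on either strand to the CCAAT box (CCAAT), the GC box (GGGCGG) and the TATA box (TATAAA), none of which overlapped.
Tubb3: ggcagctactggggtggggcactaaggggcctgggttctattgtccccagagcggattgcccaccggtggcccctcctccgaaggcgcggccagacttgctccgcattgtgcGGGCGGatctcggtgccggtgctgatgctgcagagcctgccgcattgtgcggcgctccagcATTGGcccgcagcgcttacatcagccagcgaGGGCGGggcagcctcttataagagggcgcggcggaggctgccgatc
Tubb4b: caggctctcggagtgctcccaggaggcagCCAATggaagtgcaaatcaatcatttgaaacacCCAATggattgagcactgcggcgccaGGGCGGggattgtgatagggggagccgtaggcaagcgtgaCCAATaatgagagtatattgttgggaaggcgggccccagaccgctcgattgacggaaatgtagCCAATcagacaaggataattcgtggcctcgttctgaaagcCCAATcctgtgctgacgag
CCAAT occurred 5 times in *Tubb4b*, 2 times in *Tubb5*, once in *Tubb3* and not in *Tubb1*, *Tubb2a* or *Tubb4a*, and 33.8% of the 32851 promoters of this length held it at least once. GGGCGG occurred 2 times in *Tubb3* and *Tubb2a* and once in *Tubb4b* (32.7% of promoters), and TATAAA in *Tubb2a* alone (12.4%). The GC content was 68.4% in *Tubb2a*, 68.0% in *Tubb3*, 61.6% in *Tubb4a*, 54.4% in *Tubb4b*, 54.0% in *Tubb1* and 49.2% in *Tubb5*, beside a median of 52.4% over all promoters. Sequences were matched for 6 of the 8 genes.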

How the data were processed

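RNA of 6 tissues of adult C57BL/6J mice was sequenced from rRNA-depleted, stranded (dUTP) libraries. The authors deposited whole-number read counts per gene without normalization, one column for each of the 29 libraries, on an annotation of GRCm38.p6 that joins Iso-seq loci with ENSEMBL genes, and the table held 0 columns beyond these. The paper states that uniquely mapped reads alone were kept when mouse data were quantified on this annotation. The submitters' processing notes list HISAT2 2.0.5 and featureCounts 1.6.3, with no settings. The map of ENSEMBL genes to Iso-seq loci placed the members, and the deposited coordinates gave the exon lengths.

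Members and gene lists were chosen with earlier results of these data known. FPKM was computed from the counts as CPM (library total) over the kilobases of the union of exons. Tests used edgeR 4.0.16 in R 4.3.3 (quasi-likelihood, TMM, filter on low counts by group, a mean for each of 10 groups, Benjamini-Hochberg over 29911 genes), and DESeq2 1.42.0 served as an alternative. SE is the absolute log2 fold change over the square root of the F statistic. A tissue is the mean of its sexes, set against the mean of log levels. The comparison of brain with cerebellum was tested on simulated counts, and the other comparisons were not. The genes named are the 8 members, all alpha tubulins, at most the 2 genes of each other list with the smallest adjusted p in each direction, and for each member the 3 genes most like it, of which 1 is not reported here. Of list genes, 5 had 2 rows and the row with more counts was used. Replicates differed by more than counting noise in all 28 pairs (chi-square per degree of freedom at least 11.1). Intervals and limits at 0 (3 counts) cover counting error only. Replicate numbers were checked as pairs: 0 of 56 same-numbered pairs of libraries had deviations correlated over 0.1. Sequences came from GENCODE M21 and RefSeq on the same build.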

Additional observations from a re-analysis of the deposited data

Results flagged for a closer look

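In groups of 5 or 6 libraries, the highest or lowest library was compared with its nearest neighbour by the gap over the range of the group. Chance alone picks out about 1 in 20 such groups, and 12 of 64 comparisons were picked out here. Levels and shares of the 8 isotypes in a library are not independent of each other. Female heart 3 had the highest *Tubb2b* level (5.1 FPKM, median 1.35) and share (2.58%, median 0.918%), the highest *Tubb6* level (13.3 FPKM, median 8.34), the highest *Tubb5* share (45.5%, median 32.2%) and the lowest *Tubb4b* share (32.6%, median 49.2%) of the heart libraries. Male colon 1 had the highest *Tubb5* share (30.5%, median 19.4%), the lowest *Tubb4b* share (42.9%, median 55.6%) and the highest *Tubb4a* share (1.59%, median 0.917%) of the colon libraries. Male colon 2 was the only colon library with *Tubb1* reads (0.227 FPKM, share 0.0544%). Female colon 3 had the highest *Tubb2a* level in colon (78.7 FPKM, median 47.1), and male cerebellum 2 the highest *Tubb6* share in cerebellum (0.488%, median 0.406%).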

How the results depend on the processing

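Of the 104 results for single isotypes 53 were called, and all 53 kept their call and sign with the size factors of DESeq2 and with its test. The first added *Tubb4b* as lower in brain and cerebellum, and the second also added *Tubb1* in ovary and testis and *Tubb2b* between brain and cerebellum. Without a filter on low counts 52 kept their call, *Tubb6* in heart being lost. The size factors of DESeq2 moved the median of all genes by -0.133 in brain, 0.15 in colon, 0.131 in testis and 0.173 between testis and ovary. Signs turned only where a difference was near 0 and not called: between brain and cerebellum *Tubb4a* was -0.021 and *Tubb4b* -0.0032 with the size factors and the test of DESeq2, and -0.039 and -0.019 without a filter. Between the sexes *Tubb5* in brain was -0.0015 without a filter, and *Tubb4a* in heart -0.0022 with the size factors and -0.043 without a filter.

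Same-numbered libraries did not deviate together (correlations of deviations from -0.259 to 0.0931), and whether they came from the same mouse is not given in the sources used here, so the numbers were not used as pairs. With the replicate block 52 calls of isotypes held, *Tubb1* between brain and cerebellum being lost, *Tubb6* in cerebellum was -0.0032 and *Tubb2a* in heart 0.039 between the sexes, and 10 genes were called between the sexes in heart and 1 across tissues.

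The number of genes called between the sexes depended on the test. It was 52 in brain, 22 in cerebellum, 272 in heart, 405 in colon and 117 across tissues with the DESeq2 test, in place of 11, 9, 19, 97 and 5. Without a filter it was 30 in heart and 12 across tissues, and with the size factors of DESeq2 3 across tissues. Leaving out 1 library gave 7 to 285 in heart, the libraries concerned being female heart 1 and 2 and male heart 1 and 2 (without either of the last, male heart is 1 library, assumed to vary like the other groups), 43 to 157 in colon (female heart 3, male colon 1 and 2) and 0 to 14 across tissues.

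Leaving out 1 library in turn, 3 to 6 isotypes were called between brain and cerebellum, and there *Tubb4a* ranged from -0.076 to 0.15 and *Tubb4b* from -0.025 to 0.12. *Tubb4b* was called lower without testis 2 in brain (-0.37, adjusted p = 0.0286) and cerebellum (-0.36, adjusted p = 0.0334). Between the sexes, with none called, the ranges that crossed 0 were, in brain, *Tubb2a* -0.11 to 0.19, *Tubb2b* -0.19 to 0.069, *Tubb4b* -0.12 to 0.087 and *Tubb5* -0.08 to 0.17, in cerebellum *Tubb4a* -0.42 to 0.029 and *Tubb6* -0.1 to 0.085, in heart *Tubb2a* -0.33 to 0.19, *Tubb4a* -0.3 to 0.22 and *Tubb4b* -0.19 to 0.23, and in colon *Tubb4b* -0.21 to 0.19.

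With TMM-scaled library sizes in place of library totals, 7 of 40 pairs of neighbouring tissues in the order of levels changed places, 4 pairs newly overlapped and 2 no longer did.

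Shares moved with the length used. Without division by length the share was 26.2% for *Tubb5* in brain, 38.3% for *Tubb4a* in cerebellum, 46.7% for *Tubb4b* in colon, 78.1% for *Tubb5* in ovary and 84.4% for *Tubb4b* in testis. The planned count of windows that occur once in the genome was not run, since no genome was used here, and 3 other lengths (windows of 100 bases, windows of 50 bases and the exons of GENCODE) were chosen after seeing the data. With windows of 100 bases found in no transcript of another gene it was 19.0% for *Tubb5* in brain, 21.9% for *Tubb4a* in cerebellum, 63.8% for *Tubb5* in ovary and 91.1% for *Tubb4b* in testis. With windows of 50 bases these were 16.3%, 18.5%, 56.1% and 93.9%, and *Tubb4b* had 64.0% in heart and 66.4% in colon. With the exons of GENCODE they were 17.8% for *Tubb5* in brain, 38.2% for *Tubb4a* in cerebellum and 87.4% for *Tubb4b* in testis. With this length *Tubb4a* led in brain with 32.2%. The exons of *Tubb4a* cover 3215 bases in the deposited annotation and 2228 in GENCODE. *Tubb5* in ovary and *Tubb4b* in colon and testis led under every length tried.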

Other observations

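Some counts of calls for other lists and tissues follow, and not every list is given in every tissue. In colon, where 31.1% of all genes were lower and 28.2% higher, 9 of 9 CCT genes (median log2 -1.06, beside -0.38 over all genes) and 5 of 6 prefoldin genes (median -0.86) were lower and 0 were higher. There 8 of 14 glutamylases and glycylases were lower and 3 higher, and 11 of 16 microtubule-associated proteins were lower and 1 higher (median -1.18). In cerebellum, where 22.0% of all genes were lower, 7 of 9 CCT genes were lower and 0 higher (median -0.34, beside -0.098). In heart, where 29.6% of all genes were lower and 22.1% higher, 12 of 14 glutamylases and glycylases were lower and 1 higher, and of 16 microtubule-associated proteins 13 were lower and 2 higher (median -2.09, beside -0.55). In ovary, where 19.8% of all genes were lower and 22.4% higher, 13 of these 16 were lower and 1 higher (median -2.27, beside -0.15). Of 3 genes of tubulin acetylation 3 were higher in brain (median 0.90, 33.0% of all genes higher) and 3 lower in colon (median -1.71). In testis, where 40.4% of all genes were higher and 26.7% lower, 4 of 5 severing genes were higher and 1 lower, and of 7 tubulin folding cofactors 4 were higher and 1 lower there. Of 4 other tubulins, gamma, delta and epsilon, 2 were higher and 1 lower in testis, close to the shares of all genes.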
